A study of Schistocerca gregaria with 20 samples.

Results

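The pleuropodia of the desert locust *Schistocerca gregaria* were followed from the days on which their glandular cells complete differentiation to the days on which they secrete. The libraries were chosen by tissue and age alone: 3 pleuropodia libraries of embryos of days 7, 8 and 8-9 formed the earlier period, and 3 of days 10, 11 and 12 formed the later period, which makes 6 of the 20 mRNA libraries of the series. Hind legs of the same 6 ages, again with 1 library per age, served as the comparison tissue. All eggs were incubated at 30 °C, neither tissue carried a mutation or treatment named in the labels, and the labels name no locust strain. Each library is 1 pool of appendages dissected from many embryos of 1 age, so the 3 libraries of a period are 3 ages, and the spread between them includes developmental change. Nothing in the labels says that a stage was sampled more than once.

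Pleuropodia are paired appendages of the first abdominal segment that start as limb buds and turn into glands with a brush border of microvilli. In grasshoppers and locusts the mature organ is known as the source of a hatching enzyme, a secretion that digests the inner layer of the cuticle laid down around the embryo by the serosa. Insect cuticle is made of chitin fibres and proteins, and moulting animals digest it with chitinases, N-acetylglucosaminidases and proteases. The epidermis of the locust embryo moults within each of the sampled periods, whereas the glandular cells keep their first cuticle. Hox proteins such as Ubx and abd-A set the identity of abdominal segments, and Dll and dac pattern the outer and middle parts of insect limbs.

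The depth behind the values was 32639546 to 35920944 reads in 5 of the pleuropodia libraries and 15186075 reads in that of day 8-9, which was prepared and sequenced at a second centre. Levels are given as scaled RPKM, that is mapped reads set relative to transcript length and library size, divided by a factor for library composition. The factors fell from 1.29 at day 7 to 0.747 at day 12. Both haemocyte and limb markers were followed: pro-phenol oxidase subunit 2 was the 1 haemocyte marker on the lists, and dac and Dll marked limb identity. By dac the libraries matched their tissue. It was at 0 to 0.0952 scaled RPKM in the 6 pleuropodia libraries and at 22 to 71.3 in the 6 leg libraries of the same days. Dll did not separate the tissues, at 7.64 to 19.4 in these pleuropodia libraries and at 2.34 to 45.2 in these leg libraries. Markers of the stalk, of muscle and of trachea were not annotated in the sources used here, and since these are whole appendages, fewer cells of a type and less RNA per cell cannot be told apart.

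The change between the periods reached a large part of the transcriptome. Of 10419 transcripts with at least 1 scaled RPKM in 3 or more libraries, 1407 rose (13.5%) and 1412 fell (13.6%) at an adjusted p under 0.05 (limma-trend, Benjamini-Hochberg over all transcripts tested), which is 27.1% of those tested. The rises were the larger changes: 71 transcripts rose 16-fold or more and 17 fell as far, and the median log2 change of the called transcripts was 1.31 upwards and -1.21 downwards, against 0.04 over all transcripts tested. All called transcripts had 3 later libraries that lay entirely above or below the 3 earlier ones, a separation found in 50.8% of all transcripts tested (26.0% with the later period higher and 24.7% with it lower). Without the scaling for composition the split was 712 higher and 3120 lower, and the median of all transcripts moved to -0.43. Leaving out 1 library left 465 higher and 357 lower without day 7, 863 and 684 without day 8, 645 and 903 without day 10, 486 and 759 without day 11, and 586 and 911 without day 12. Without the library of the second centre, day 8-9, the counts were 1226 and 1125.

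**Figure D1:**
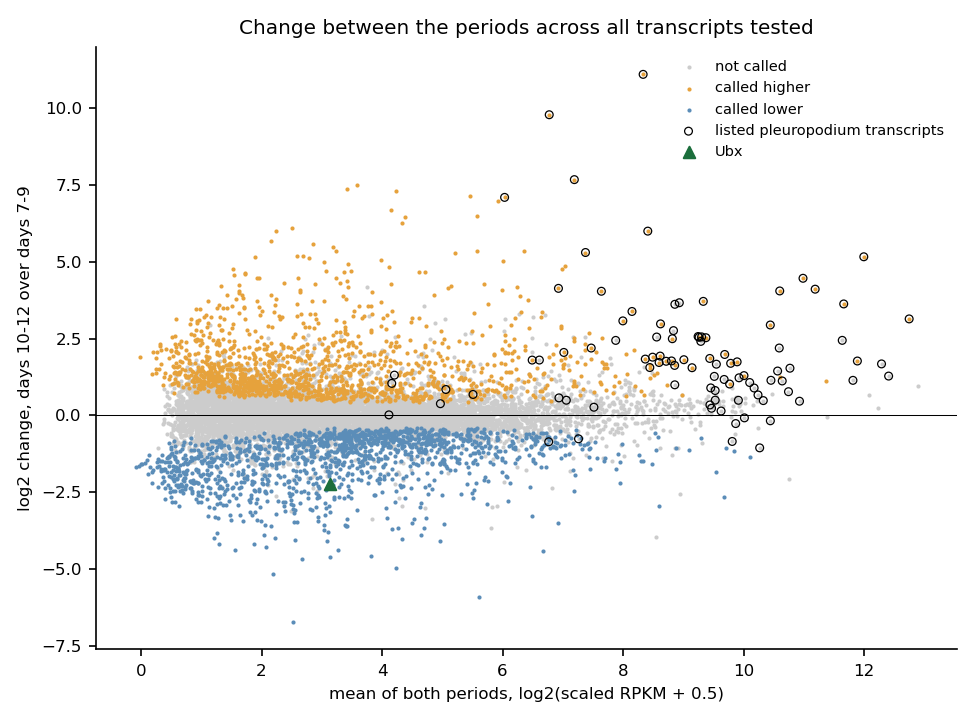
Each point is 1 of the 10419 transcripts tested; the horizontal axis is the mean of the 2 periods in log2(scaled RPKM + 0.5) and the vertical axis the log2 change from days 7-9 to days 10-12. The 94 listed pleuropodium transcripts (circles) lie mostly at the right, among the most abundant, and reach 11.1 upwards, while Ubx (triangle) lies at -2.23.

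Over all transcripts tested, the median size of the step between neighbouring libraries was 0.52 log2 units from day 8-9 to day 10, against 0.23 from day 7 to day 8, 0.37 from day 8 to day 8-9, 0.15 from day 10 to day 11 and 0.28 from day 11 to day 12. Both steps at day 8-9 join libraries of the 2 centres. For the transcripts that rose or fell, a large step at the border of the periods follows from how they were called, and their steps are given as a description. The median step of the transcripts called higher was 1.2 log2 units from day 8-9 to day 10, against 0.16 from day 7 to day 8, -0.11 from day 8 to day 8-9, 0.03 from day 10 to day 11 and 0.27 from day 11 to day 12. Those called lower stepped by -1.04 between day 8-9 and day 10, and by -0.27, 0.04, -0.01 and -0.33 at the other steps in the same order. Taken from day 8 to day 10, a still longer interval between libraries of 1 sequencing centre, the medians were 1.09 and -0.94. Day 13 entered only an alternative fit. There 95% of the transcripts called higher lay above all 3 earlier libraries, against 39.2% of all transcripts tested. Of those called lower 98.5% lay below them, against 36.7% of all. The calls rest on the same earlier libraries, so these shares are not independent of the calls and are given as a description. On the first principal component of the 500 most variable transcripts, which held 75.6% of the variance, the libraries lay at -49.7, -27.1 and -35.7 (days 7, 8 and 8-9) and at 26.2, 33.6 and 52.7 (days 10, 11 and 12).

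In the later libraries the mRNA of the pleuropodia was concentrated in fewer transcripts. The most abundant transcripts that together held 50% of the reads numbered 545, 392 and 461 at days 7, 8 and 8-9 and 247, 177 and 127 at days 10, 11 and 12. The later libraries were all below the earlier ones, with a mean of 184 ± 60.3 against 466 ± 76.6 (SD, n = 3 each; p = 0.1 by an exact permutation of the libraries, two-sided, which 3 against 3 cannot go below). The 10 most abundant transcripts of each library took 8.16% ± 1.04 of the reads in the earlier and 16.9% ± 2.80 in the later period, with the same exact permutation p of 0.1. In legs these numbers were 523, 529 and 528 in the earlier and 456, 509 and 272 in the later libraries, so the later legs were also all below the earlier ones.

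A set of 94 transcripts that the study names as more abundant in pleuropodia than in legs at days 10 to 12 took a larger share of the reads in the later libraries. They took 8.12%, 15% and 11.2% of the reads at days 7, 8 and 8-9 and 25.7%, 33.5% and 36.7% at days 10, 11 and 12, against 0.651% to 1.1% in legs of these days. The shares of the later period all lay above those of the earlier one, and day 13 had 41.2%. Of the 94 transcripts 43 rose and none fell, where 13.5% of all transcripts tested rose, with a median log2 change of 1.71 against 0.04 over all transcripts tested. The study chose these transcripts on the libraries of days 10 to 12, so their direction is not independent evidence. The same holds for each of their lists below. The counts of rises there stand against the same 13.5%. Periods without overlap stand against the 26.0% of all transcripts tested with the later period higher. Without 1 library the 43 calls became 24 (day 7), 46 (day 8), 36 (day 8-9), 36 (day 10), 24 (day 11) or 27 (day 12). Of the 43 transcripts 34 were highest on day 12, 6 on day 11 and 3 on day 10, and 26 of them had been under 1 scaled RPKM at day 4.

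**Figure D2:**
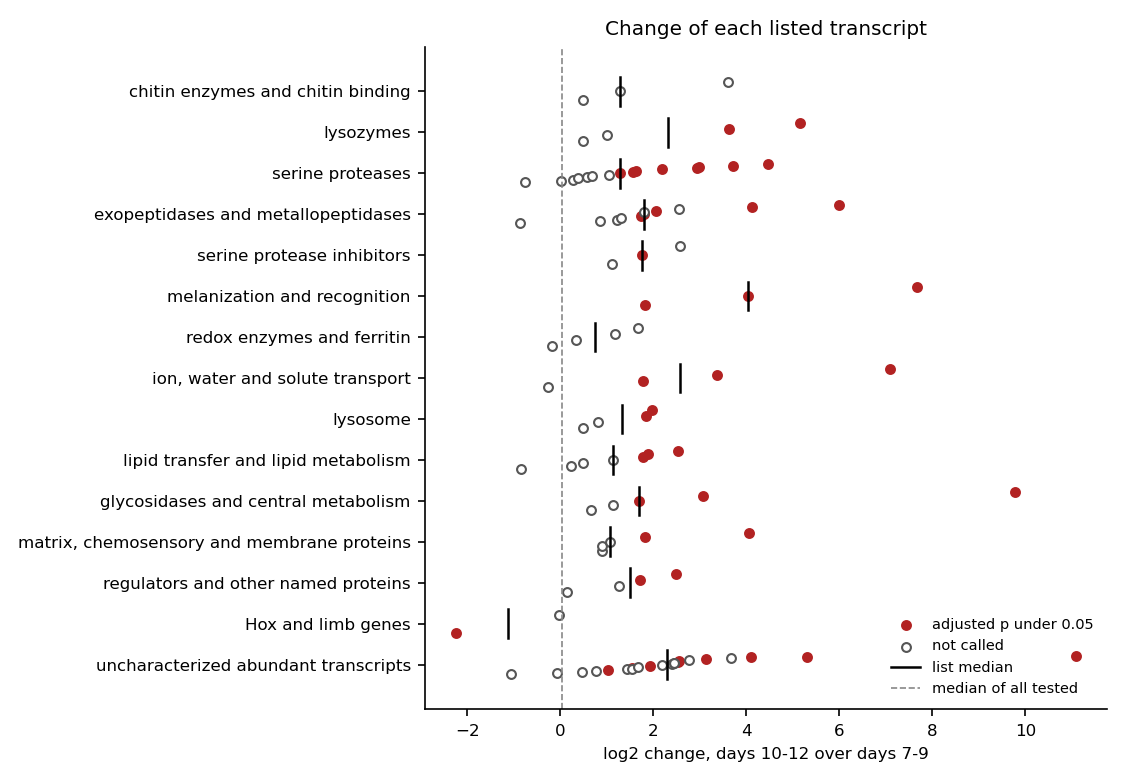
Each point is 1 listed transcript at its log2 change from days 7-9 to days 10-12, with filled points for an adjusted p under 0.05, a black bar for the median of its list and a dashed line for the median of all transcripts tested (0.04). The medians of all lists but that of the Hox and limb genes lie between 0.75 and 4.04, and several lists hold open and filled points side by side.

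The list of chitin enzymes and chitin-binding proteins held *Sg-cht5-1*, *Sg-nag2* and a Peritrophin-A protein, and none was called between the periods. Further chitinases and N-acetylglucosaminidases that the study reports as higher in pleuropodia are not on this list and were not followed. Chitinases cut chitin chains and N-acetylglucosaminidases release single sugars from the ends. All 3 members of this list missed the threshold, with a median log2 change of 1.28. The chitinase *Sg-cht5-1* was at 64.6, 46.7 and 74.3 scaled RPKM at days 7, 8 and 8-9, and at 52.1, 841 and 9503 at days 10, 11 and 12. Its groups overlapped because day 10 was as low as the earlier libraries, while day 12 was the highest and day 13 reached 23048, so the log2 change of 3.61 (SE 1.71) had an adjusted p of 0.156. Leaving out 1 library gave changes from 1.78 without day 12 (adjusted p = 0.318) to 5.52 without day 10 (adjusted p = 0.027). It had already been at 433 scaled RPKM in pleuropodia of day 6, above all 3 earlier libraries. *Sg-nag2*, an N-acetylglucosaminidase, was at 636, 1167 and 659 in the earlier and 820, 1195 and 1390 in the later libraries, a log2 change of 0.49 (SE 0.34, adjusted p = 0.314). This transcript was already abundant at day 7, and the groups overlapped. The Peritrophin-A protein, which carries a chitin-binding domain, was at 1832, 4707 and 4332 and then at 7740, 7400 and 9325, without overlap, but its change of 1.28 was not called (adjusted p = 0.0911).

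The lysozymes, which cut the peptidoglycan of bacterial cell walls, split by member. Of the 4 transcripts 2 rose, and the median log2 change of the list was 2.31. The c-type lysozyme *Sg-LyzC-1* was at 66.0, 570 and 2167 scaled RPKM in the earlier libraries, and at 7016, 20280 and 26290 in the later ones. It increased at each sampled stage up to day 12, and from rank 961 among all transcripts of the library at day 7 to rank 1 at days 11 and 12. The log2 change was 5.16 (SE 1.26, adjusted p = 0.0289). Leaving out 1 library gave 3.80 to 6.32, and the call was lost without day 7, 8, 10, 11 or 12 (adjusted p up to 0.0904). The i-type lysozyme *Sg-LyzI-1*, of the invertebrate family, was at 373, 3373 and 213 and then at 7726, 7963 and 8210. Day 8 stood far above its neighbours, and the later libraries lay close together above all of the earlier ones. Its log2 change was 3.63 (SE 0.98, adjusted p = 0.038), and the call held without day 8 (adjusted p = 0.00703) but was lost without any other library (adjusted p up to 0.125).

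*Sg-LyzC-2* was at 442, 782 and 2448 in the earlier and at 1763, 1118 and 1169 in the later libraries, so its groups overlapped (log2 change 0.48, SE 0.62, adjusted p = 0.59). *Sg-LyzI-3* was at 226, 618 and 208 and then at 611, 651 and 580 (log2 change 0.99, SE 0.43, adjusted p = 0.126), and without day 8 its change was 1.5 with an adjusted p of 0.0171. Together the listed lysozymes took 0.136%, 0.58% and 0.417% of the reads of the earlier libraries and 1.37%, 1.95% and 2.04% of the later ones. Their share was higher in all 3 later libraries.

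Of the 15 serine proteases 8 rose and none fell, where 13.5% of all transcripts tested rose, with a median log2 change of 1.29. Most are relatives of Snake and Easter, clip-domain proteases that in *Drosophila* act one on the next in the cascade that activates the ligand of Toll. The trypsin-like protease (SgreTa0001636) was at 416, 703 and 224 scaled RPKM in the earlier libraries and at 6899, 8016 and 12671 in the later ones. Every later library was far above every earlier one, and the log2 change was 4.46 (SE 0.49, adjusted p = 0.00547). The H2-like protease was at 69.9, 416 and 104 and then at 958, 2854 and 2507, without overlap (log2 change 3.71, SE 0.74, adjusted p = 0.0167), and its call was lost without day 7, 11 or 12 (adjusted p up to 0.0616).

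The Snake-like protease SgreTa0000783 was at 77.3, 180 and 153 and rose to 696, 777 and 1927 (log2 change 2.98, SE 0.49, adjusted p = 0.0101). Its relative SgreTa0017715 was at 264, 1030 and 343 and rose to 2713, 3589 and 4359 (log2 change 2.94, SE 0.54, adjusted p = 0.0132), a call that was lost without day 7 (adjusted p = 0.0515). In both transcripts the periods did not overlap, and day 12 was the highest library. The 7 members that were not called had changes between -0.76 and 1.04. The count of 8 called members fell to 3 without day 7 and to 4 without day 11 or day 12. These proteases are related in sequence, and reads mapped in local mode could be divided between relatives, which leaves single members less certain than the list.

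Of the 11 peptidases that trim or cut peptides, 5 rose and none fell, with a median log2 change of 1.80. Neutral endopeptidases, zinc enzymes related to neprilysin, were called in all 3 of their listed transcripts. The endopeptidase SgreTa0002467 was at 27.1, 47.4 and 47.3 scaled RPKM in the earlier libraries and at 1650, 2087 and 4724 in the later ones. It lay between 27.1 and 47.4 through the earlier period, so even the lowest later library was far outside the spread (log2 change 5.99, SE 0.44, adjusted p = 0.00292). SgreTb0039123, a second endopeptidase, was at 77.2, 50.1 and 61.9 and then at 237, 213 and 341 (log2 change 2.05, SE 0.25, adjusted p = 0.00557). The aminopeptidase N-like transcript SgreTa0017219, of a family that removes residues from the start of peptides, was at 6.67, 66.0 and 25.5 and then at 661, 457 and 220. It was highest at day 10 of the 6 libraries, without overlap of the periods (log2 change 4.13, SE 0.82, adjusted p = 0.0166), and its call was lost without day 10 or day 11 (adjusted p up to 0.0545). The serine carboxypeptidase, an enzyme that removes residues from the end of peptides, was at 35.6, 115 and 210 and then at 213, 267 and 3060. Only day 12 stood apart there, and the change of 2.55 (SE 1.13) was not called (adjusted p = 0.138). The count of 5 called peptidases became 3 without day 10 or day 11 and 7 without day 8.

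Of the inhibitors of serine proteases 1 of 3 was called, with a median log2 change of 1.76 for the list. The uncharacterized inhibitor SgreTa0002155 was at 201, 252 and 222 and rose to 548, 805 and 997 (log2 change 1.76, SE 0.26, adjusted p = 0.00826). The serpin 27-like transcript, related to a serpin that limits melanization in *Drosophila*, was at 84.2, 621 and 152 and then at 635, 1574 and 1657, with a change of 2.57 (SE 0.77) at an adjusted p of 0.0514. Its periods did not overlap, but day 8 nearly reached day 10, and without day 8 the adjusted p was 0.0224. The serpin 88E-like transcript was at 988, 761 and 1355 and then at 3142, 3227 and 1033, so that day 12 was back among the earlier values (log2 change 1.12, SE 0.51, adjusted p = 0.146, or 1.67 and 0.0365 without day 12).

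All 3 transcripts for melanization and recognition rose, with a median log2 change of 4.04. Pro-phenol oxidase is the inactive form of the enzyme that oxidizes phenols on the way to melanin, and in other insects it is made largely by haemocytes. Subunit 2 was at 0.583, 28.0 and 7.43 scaled RPKM in the earlier pleuropodia and at 490, 1235 and 3398 in the later ones. It was near absent at day 7, lower at day 8-9 than at day 8, and then increased with each library up to day 12. The log2 change was 7.67 (SE 1.25, adjusted p = 0.00999). In legs of the same days it was at 0.234, 17.2 and 7.01 and then at 132, 92.1 and 115, so the later legs also lay above the earlier ones, and below the later pleuropodia. As the 1 haemocyte marker on the lists it is also a member, and the part of haemocytes in its values was not tested.

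The yellow protein, which takes part in dark pigmentation in *Drosophila*, was at 13.9, 162 and 11.0 and then at 167, 1083 and 657 (log2 change 4.04, SE 1.15, adjusted p = 0.0439). Day 8 and day 10 were almost equal, and the call was lost without day 7, 8-9, 11 or 12 (adjusted p up to 0.14). Gram-negative bacteria binding protein 3, whose *Drosophila* relative recognizes fungal glucans, was at 126, 269 and 127 and rose to 355, 581 and 944 (log2 change 1.83, SE 0.45, adjusted p = 0.0293), a call lost without the same 4 libraries (adjusted p up to 0.103).

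None of the 4 redox enzymes and iron proteins was called, with a median log2 change of 0.75. Catalase, which breaks down hydrogen peroxide, was at 1359, 1694 and 1293 in the earlier and at 1592, 1636 and 795 in the later libraries (log2 change -0.17, SE 0.35, adjusted p = 0.737). Ferritin, the iron store of the cell, had a change of 0.34 (SE 0.26, adjusted p = 0.363). Both were abundant in all 6 libraries with overlapping periods. The peroxiredoxin 5-like transcript was at 194, 806 and 369 and then at 1134, 1313 and 1239, above all earlier values, with a change of 1.67 (SE 0.50) at an adjusted p of 0.0511, or 0.0208 without day 8. Among the 6 libraries the peroxidase was high at days 8 and 11 only, and it is described with the transcripts of that pattern.

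Of the 4 transporters 3 rose, with a median log2 change of 2.58. The sodium:neurotransmitter symporter, which moves small solutes into cells with sodium, was at 0.507, 10.0 and 7.59 scaled RPKM and then at 596, 358 and 1013. The value at day 7 rests on 19 reads (exact 95% Poisson limits 0.305 to 0.791 scaled RPKM, for counting error only). All later libraries were far above the earlier ones (log2 change 7.09, SE 0.91, adjusted p = 0.00639). Aquaporin, a water channel, was at 16.8, 176 and 122 and then at 569, 867 and 855 (log2 change 3.38, SE 0.84, adjusted p = 0.0301), and the call was lost without day 10, 11 or 12 (adjusted p up to 0.0908). The Na+, K+ ATPase, which builds the sodium gradient, had an alpha subunit that was at 180, 254 and 290 and rose to 677, 723 and 1081 (log2 change 1.77, SE 0.28, adjusted p = 0.0093). The proteolipid subunit of the V-ATPase, the pump that acidifies vesicles, was at 797, 847 and 1497 and then at 897, 791 and 820. Apart from day 8-9 its values stayed within 791 and 897, and the change of -0.27 (SE 0.30) was not called (adjusted p = 0.532).

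**Figure D3:**
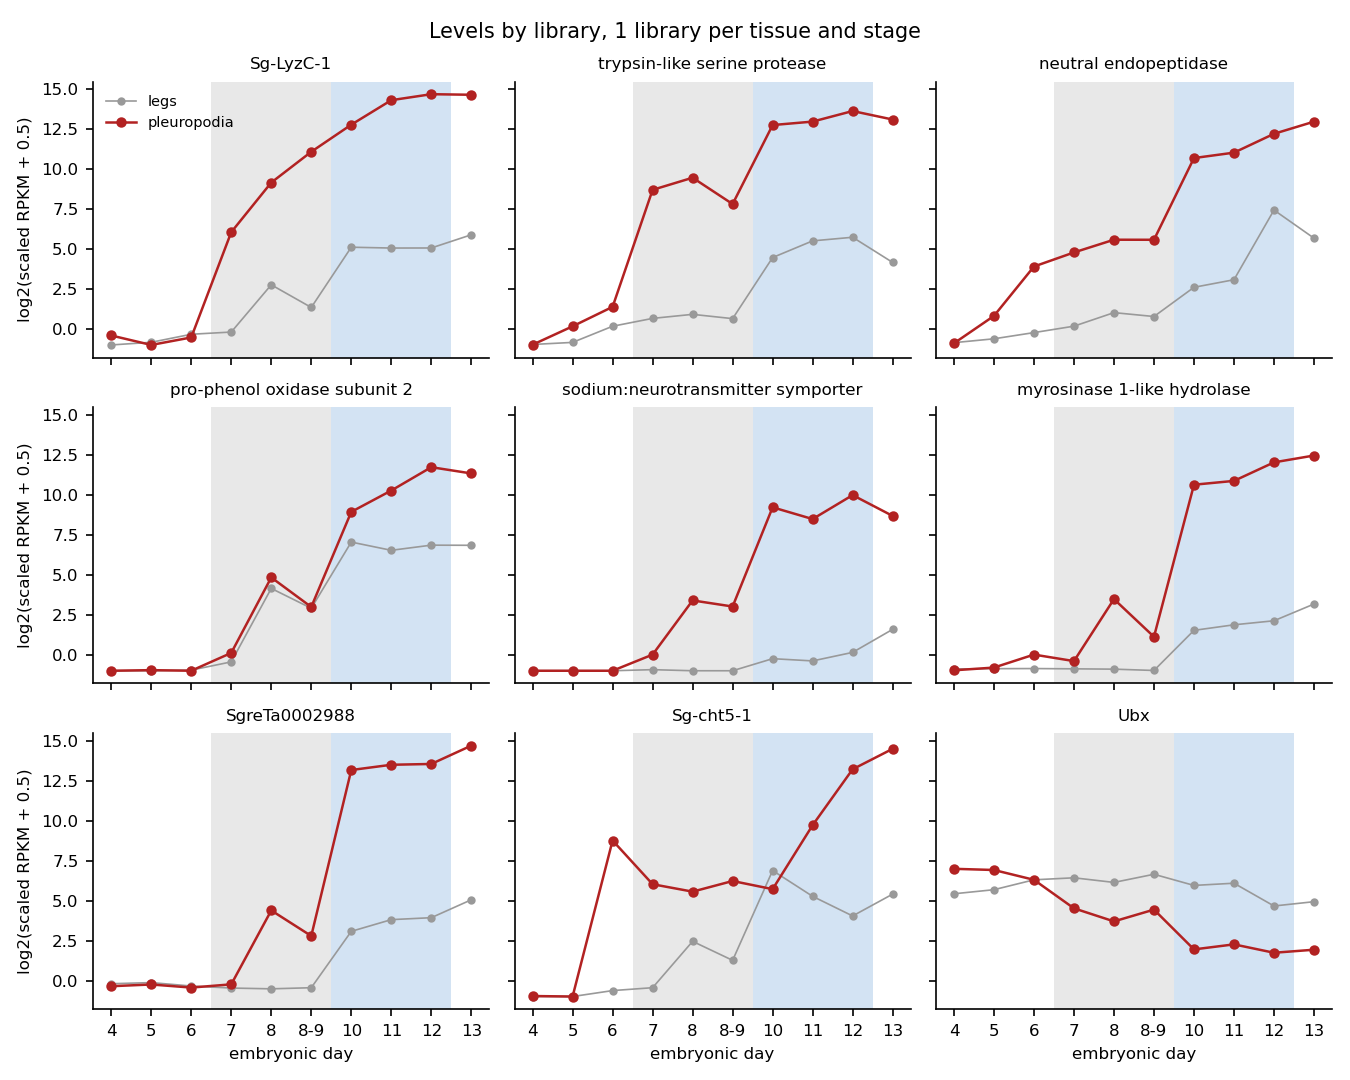
Level of 9 transcripts in log2(scaled RPKM + 0.5) against embryonic day, with 1 library per point, pleuropodia in red, legs in grey, and the earlier and later period shaded grey and blue. Most panels step up between day 8-9 and day 10, Sg-cht5-1 is high at day 6 and again from day 11, and Ubx lies below the legs from day 7.

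Of the 4 lysosomal proteins 2 rose, with a median log2 change of 1.33. Cathepsin L, a lysosomal protease, was at 193, 450 and 632 and then at 916, 1684 and 2196 (log2 change 1.98, SE 0.53, adjusted p = 0.0356). The LITAF homolog, a lysosomal membrane protein, was at 203, 409 and 443 and then at 944, 768 and 2395 (log2 change 1.85, SE 0.51, adjusted p = 0.0405). In both the periods did not overlap, but the calls lay near the threshold and were easily lost with 1 library fewer. Cathepsin L was not called without day 7, 8, 11 or 12 (log2 change 1.49 to 2.35 over the 6 fits, adjusted p up to 0.109). LITAF lost its call whichever of the 6 libraries was left out (log2 change 1.36 to 2.17, adjusted p up to 0.125). The lysosomal-associated membrane protein and the second cathepsin L had changes of 0.81 and 0.49 and were not called (adjusted p = 0.147 and 0.105).

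Among the 7 transcripts of lipid transfer and metabolism 3 rose, with a median log2 change of 1.14. Cytochrome P450 CYP4G102, of the family that makes cuticular hydrocarbons in other insects, was at 115, 337 and 353 and rose to 1525, 1515 and 1168 (log2 change 2.54, SE 0.46, adjusted p = 0.0126). The phospholipase B-like transcript was at 214, 195 and 150 and rose to 614, 665 and 795 (log2 change 1.89, SE 0.21, adjusted p = 0.00547). Of the alpha-tocopherol transfer proteins, which carry lipids between membranes, SgreTa0004599 was at 1881, 2401 and 1875 and then at 5800, 7083 and 8166 (log2 change 1.77, SE 0.33, adjusted p = 0.0136), and its call was lost without day 7 or day 11 (adjusted p up to 0.0563). Its relative SgreTa0003635 was at 669, 867 and 1089 and then at 1020, 1615 and 4119, with overlapping periods (log2 change 1.14, adjusted p = 0.153), and the third, SgreTa0005752, was lower in all later libraries without being called (log2 change -0.85, adjusted p = 0.129).

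Among glycosidases and enzymes of central metabolism 3 of 5 rose, with a median log2 change of 1.69. The myrosinase 1-like glycosyl hydrolase, a relative of an aphid enzyme that splits glucosides of plants, was at 0.26, 10.7 and 1.68 scaled RPKM in the earlier libraries and at 1589, 1876 and 4189 in the later ones. It was close to absent at day 7 and far above all earlier values from day 10 on (log2 change 9.78, SE 0.95, adjusted p = 0.00542). Phosphoenolpyruvate carboxykinase, an enzyme of gluconeogenesis, was at 60.2, 107 and 82.9 and rose to 458, 516 and 1365 (log2 change 3.07, SE 0.45, adjusted p = 0.00808). Glutamate dehydrogenase, which links amino acids to the citric acid cycle, was at 363, 565 and 558 and rose to 1601, 1493 and 1624 (log2 change 1.69, SE 0.25, adjusted p = 0.00813). Alpha-N-acetylgalactosaminidase was already at 1544 to 3833 in the earlier period and at 4538 to 5512 in the later one, which was not called (log2 change 1.14, SE 0.42, adjusted p = 0.0879), or 1.5 with an adjusted p of 0.0402 without day 8.

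Collagen, a protein of the extracellular matrix, was at 277, 480 and 389 and rose to 4878, 5901 and 8145 (log2 change 4.05, SE 0.33, adjusted p = 0.00388). The leucine rich repeat protein was at 222, 390 and 222 and rose to 905, 789 and 1168 (log2 change 1.81, SE 0.30, adjusted p = 0.01). These 2 of the 5 matrix, chemosensory and membrane proteins were called, both without overlap, and the median of the list was 1.07. The pheromone-binding protein A10/OS-D, of a family of carriers for small hydrophobic molecules, was at 267, 1630 and 655 and then at 1802, 1433 and 1022 (log2 change 1.07, SE 0.65, adjusted p = 0.253), and the tetraspanin was not called either (log2 change 0.89, SE 0.31, adjusted p = 0.072). Among the 4 regulators and other named proteins, Tob, which holds back cell division in other animals, was at 93.9, 188 and 315 and rose to 838, 907 and 1318 (log2 change 2.49, SE 0.45, adjusted p = 0.0129). The transposase-like transcript rose with a change of 1.72 (SE 0.36, adjusted p = 0.0184), a call lost without day 7, 11 or 12 (adjusted p up to 0.0733). The MBF2 domain protein (1.27, SE 0.47, adjusted p = 0.0893) and Bax inhibitor 1 (0.14, SE 0.25, adjusted p = 0.696), a protein of the endoplasmic reticulum that counters cell death, were not called. The median of these 4 was 1.5.

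Of the 22 abundant transcripts without a protein name 9 rose, with a median log2 change of 2.30. SgreTa0002988, which holds a domain of unknown function, changed most of all listed transcripts: it was at 0.348, 20.4 and 6.41 scaled RPKM in the earlier libraries and at 9193, 11544 and 11952 in the later ones. The value at day 7 rests on 34 reads (Poisson limits 0.241 to 0.486 scaled RPKM), whereas this transcript ranked 3rd, 4th and 5th by level in the later libraries (log2 change 11.1, SE 1.07, adjusted p = 0.00542). SgreTa0005052 was at 212, 767 and 663 and rose to 3564, 8906 and 17374 (log2 change 4.11, SE 0.73, adjusted p = 0.0123). SgreTb0019287 was at 6.14, 125 and 3.36 and then at 808, 645 and 374 (log2 change 5.30, SE 1.26, adjusted p = 0.0264), and its call held without day 8 only (adjusted p up to 0.0954 without another library). The count of 9 became 4 without day 7, 5 without day 8-9, 11 or 12, 7 without day 10 and 10 without day 8. SgreTa0017854 was at 38.4, 642 and 16.5 and then at 546, 1097 and 1442, so day 8 lay above day 10 and the change of 3.66 (SE 1.29) was not called (adjusted p = 0.078, or 0.0147 without day 8).

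Ubx was the 1 listed gene that fell. It was at 22.4, 12.5 and 21.2 scaled RPKM in the earlier pleuropodia and at 3.36, 4.30 and 2.84 in the later ones, below every earlier value (log2 change -2.23, SE 0.27, adjusted p = 0.00557). Before that it had been at 126, 120 and 78.3 at days 4, 5 and 6. In legs Ubx was at 85.5, 69.9 and 99.7 and then at 61.3, 67.5 and 24.8, and the fall in pleuropodia was not shown to differ from that in legs (difference -1.46, SE 0.51, adjusted p = 0.123). Dll stayed at 7.64 to 19.4 in the earlier and 10.1 to 11.8 in the later pleuropodia (log2 change -0.03, SE 0.35, adjusted p = 0.957). The other pair was too low to be tested: abd-A was at 0.324 to 1.76 scaled RPKM over the 6 libraries, from 8 to 35 reads each, and dac had 0 to 16 reads.

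Outside the lists, 2 rises and 2 falls with the largest changes are named by the identifiers of the files. SgreTa0010830 was at 0, 0.957 and 0.234 scaled RPKM and then at 99.7, 122 and 256 (log2 change 7.5, SE 0.49, adjusted p = 0.00255). The 20 reads of its earlier period give a ratio of means of 401, with counting limits of 259 to 656. SgreTa0008305 was at 0.0712, 0.398 and 0.30 and then at 86.5, 66.8 and 302 (log2 change 7.35, SE 0.56, adjusted p = 0.00297). Both were near absent before day 10, and in legs of these days they stayed at or below 0.271 and 3.68.

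SgreTa0013144 fell from 53.7, 46.1 and 77.2 to 0.0591, 0.0322 and 0.0764 scaled RPKM, the latter from 5 reads in all, for a ratio of means of 1060 with counting limits of 452 to 3250 (log2 change -6.71, SE 0.22, adjusted p = 0.000116). In legs it was at 602, 944 and 1573 and then at 8.59, 7.66 and 1.56, so the later libraries were far lower in both tissues. SgreTa0013843 was at 658, 179 and 220 and fell to 4.89, 12.8 and 1.2 (log2 change -5.90, SE 0.82, adjusted p = 0.00725). It had been at 4.58, 52.6 and 2567 in pleuropodia of days 4, 5 and 6, so its highest value was at day 6, before both periods.

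Whether the pleuropodia changed differently from legs of the same ages was tested with the interaction of tissue and period over 12 libraries. Of 12068 transcripts 240 changed more upwards in pleuropodia than in legs (1.99%) and 707 more downwards (5.86%), together 7.85%. A negative difference need not be a fall in pleuropodia, since a larger rise in legs gives one too. Of the 1407 transcripts that rose in pleuropodia 217 had a positive and 10 a negative difference. Of the 1412 that fell 180 had a negative and none a positive one. These transcripts were called on the same pleuropodia values, so the sign of their differences is not independent of the call. In all limma called 947 differences, and 2445 had an unadjusted p under 0.05. The median change in legs was 0.49 for the transcripts that rose in pleuropodia and -0.64 for those that fell, against 0 for all tested. Leaving out both libraries of day 7, 8, 10 or 11 left 77, 157, 72 or 54 positive and 249, 378, 232 or 237 negative differences. Without day 8-9 there were 161 and 346. Only without day 12 were there more than with all libraries, at 349 and 874.

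Of the 94 listed transcripts 9 changed more upwards in pleuropodia than in legs and 1 more downwards, where 1.99% and 5.86% of all transcripts did. The largest differences were those of the myrosinase 1-like hydrolase (6.91, SE 1.11, adjusted p = 0.00433), SgreTa0002988 (6.91, SE 1.26, adjusted p = 0.0083) and the sodium:neurotransmitter symporter (6.22, SE 1.07, adjusted p = 0.00599). In legs the hydrolase went from 0.00603 to 0.0432 scaled RPKM in the earlier to 2.38 to 3.86 in the later period, and the symporter stayed at or below 0.608. Phosphoenolpyruvate carboxykinase moved in opposite directions, since in legs it was at 86.9, 19.6 and 28.1 and then at 13.4, 10.9 and 5.77 (difference 4.93, SE 0.80, adjusted p = 0.00455). The Easter-like protease SgreTa0006780 was the downward case: in pleuropodia it was at 139, 172 and 275 and then at 133, 165 and 61.1, and in legs at 0.365 to 1.3 and then at 4.34 to 6.64 (difference -2.94, SE 0.60, adjusted p = 0.0141).

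Several transcripts that rose in pleuropodia were also higher in the later legs, at far lower levels. Collagen was at 0.838, 0.983 and 1.99 in legs and then at 15.1, 30.9 and 30.7, and the difference between the tissues was 0.10 (SE 0.50, adjusted p = 0.946). For *Sg-LyzC-1* the legs were at 0.375, 6.28 and 2.04 and then at 34.1, 32.9 and 33.0 (difference 1.3, SE 1.59, adjusted p = 0.725), and for pro-phenol oxidase subunit 2 the difference was 3.02 (SE 1.88, adjusted p = 0.433). Over all 94 transcripts the median change in legs was 1.07 on the log2 scale. Being more abundant in pleuropodia than in legs at days 10 to 12 was what the study chose them for, and *Sg-cht5-1* was the 1 transcript for which this did not hold at each of the 3 days, at 52.1 in pleuropodia and 117 in legs of day 10.

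**Figure D4:**
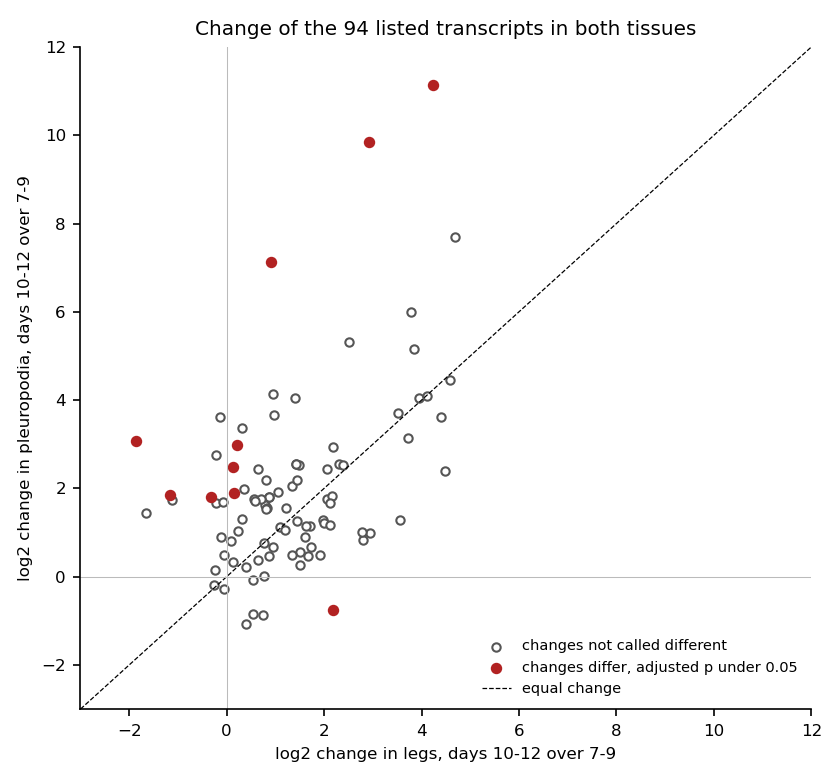
Log2 change from days 7-9 to days 10-12 of the 94 listed transcripts in legs (horizontal) and in pleuropodia (vertical), both scaled over 12 libraries, with filled points for the 10 transcripts whose changes differ at an adjusted p under 0.05. Points near the dashed line changed by the same factor in both tissues; the filled points lie above it except for SgreTa0006780.

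A small set of transcripts did not follow the periods but was high at days 8 and 11. With a 4-fold excess over the other 2 libraries of the same period and at least 10 scaled RPKM in both peaks, 15 of the 10419 transcripts tested (0.144%) peaked at days 8 and 11. The other 8 pairs of days gave 0 to 3 transcripts. At a 2-fold excess the counts were 29 for days 8 and 11, 20 for days 8-9 and 12, and 0 to 7 for the other pairs, so the pair of days 8 and 11 stood apart less. The rule was made after the values were seen, and the set is a description with no test. Its members include the peroxidase, which was at 13.9, 1829 and 90.7 scaled RPKM at days 7, 8 and 8-9 and at 67.5, 2916 and 138 at days 10, 11 and 12. SgreTa0009217 was at 24.5, 4734 and 45.5 and then at 1170, 17826 and 41.3, and SgreTa0002109 was at 17.9, 1915 and 72.8 and then at 425, 10215 and 56.3. None of the 15 was called between the periods, and each period held a high and a low library.

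The medians of the 15 transcripts were 3.67, 170 and 13.6 scaled RPKM at days 7, 8 and 8-9, 43.5, 1120 and 16.4 at days 10, 11 and 12, and 258 at day 13. All 15 were higher at day 13 than at day 12. In legs their medians stayed at or below 0.619 on all 10 days, and the highest leg value was 114, for the peroxidase at day 13. The library of day 8-9 comes from the second centre. With its values left out of the rule, 17 transcripts had a 4-fold excess of day 8 over day 7 and of day 11 over days 10 and 12. With day 7 over day 8 instead there was 1. The 17 hold all 15, as a rule with fewer conditions must, so they are no check on the part of that library. Each peak is 1 library, so whether it belongs to the age or to that library cannot be told apart.

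**Figure D5:**
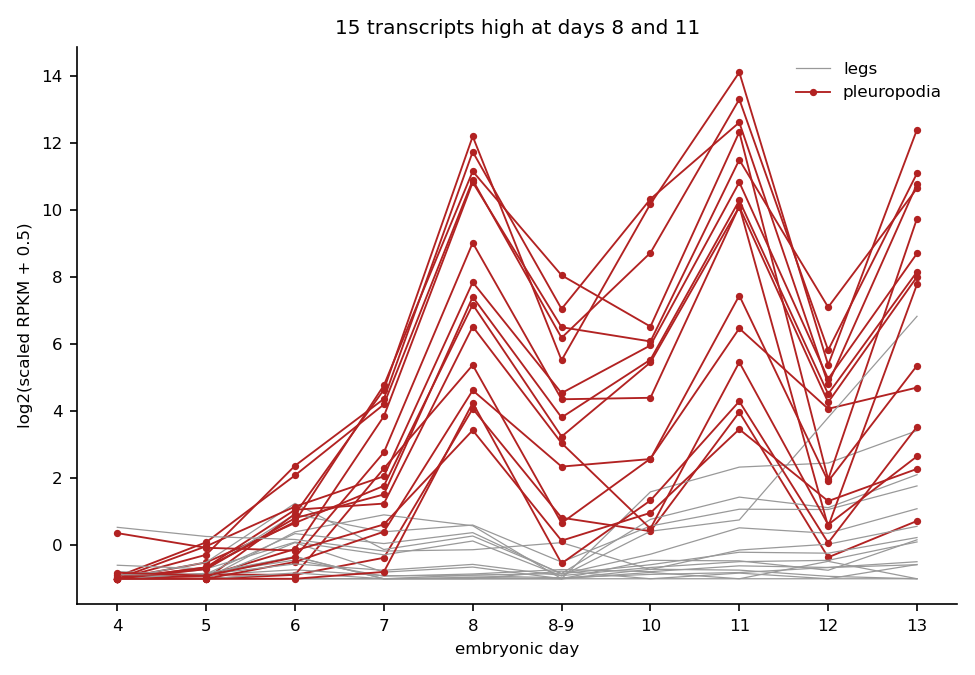
Level of the 15 transcripts with peaks at days 8 and 11 in log2(scaled RPKM + 0.5) against embryonic day, pleuropodia in red and legs in grey, with 1 library per point. All red lines peak at days 8 and 11, are low at day 12 and are higher again at day 13, while the grey lines stay low apart from the peroxidase at days 12 and 13.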

How the data were processed

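Total RNA of dissected pleuropodia and hind legs was enriched for mRNA and sequenced, with day 8-9 at a second centre (75 bases, trimmed to 50). For that pair the labels state that reads of 1 direction were used, while the methods state that mates were concatenated, and its reads also entered the reference assembly. Mapping by the authors, onto an embryonic transcriptome of their own, used Bowtie2 2.2.5 with local alignment. They then removed weak transcripts with HTSFilter and deposited RPKM for 12988 transcripts. A deposited table of the authors' own comparison of pleuropodia with legs was not used.

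Samples were grouped by the tissue and age in their labels. RPKM were scaled by TMM (30% of ratios and 5% of abundances trimmed), a level of 1 or higher in 3 libraries was required, and log2(RPKM + 0.5), a scale that understates changes of low transcripts, was fitted with limma-trend (limma 3.58.1, R 4.3.3) at a Benjamini-Hochberg adjusted p under 0.05. Leg and day 13 levels were scaled to the same reference library, and the tissue by period fit was scaled over its 12 libraries. The p-values measure the spread between libraries of different ages. Whole reads behind the RPKM were recovered within 0.05 reads and used for depth, shares and Poisson limits only; where several lengths were possible the shortest was taken. Alternatives were other scalings, pseudocounts and filters, limma without trend, leaving out each library, adding day 13, and day as a block. The fits were tested on simulated data.

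The members and lists were chosen with earlier results of these data known. Named with values were the 4 members of each list with the largest change, every member that fell, the Hox and limb genes, and the 2 largest rises and 2 largest falls outside the lists among called transcripts of at least 10 RPKM; SgreTa0006780, SgreTa0005752 and the transcripts high at days 8 and 11 were chosen after their values were seen.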

Additional observations from a re-analysis of the deposited data

Results flagged for a closer look

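The transcripts named here changed differently in pleuropodia and in legs by the test of the interaction of tissue and period (limma, adjusted p under 0.05); the value is the log2 change in pleuropodia minus that in legs, with 3 libraries per tissue and period. Upwards these were SgreTa0010830 (7.28, adjusted p = 0.000241), SgreTa0008305 (7.07, adjusted p = 0.00171), the myrosinase 1-like glycosyl hydrolase (6.91), SgreTa0002988 (6.91), the sodium:neurotransmitter symporter (6.22) and phosphoenolpyruvate carboxykinase (4.93). Smaller differences were those of the LITAF homolog (3.02, adjusted p = 0.0146), the Snake-like serine protease SgreTa0000783 (2.76, adjusted p = 0.0244), Tob (2.36, adjusted p = 0.0376), the leucine rich repeat protein (2.12, adjusted p = 0.00446) and the phospholipase B-like transcript (1.74, adjusted p = 0.00866). SgreTa0013843 fell further in pleuropodia than in legs (-3.52, adjusted p = 0.0466). All of these were named for large changes in pleuropodia, and the difference uses the same values, so it is not independent of that choice. Over all transcripts in this test 7.85% were called.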

How the results depend on the processing

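No paired analysis was possible for the change between the periods because its libraries are of different ages and share no number in the labels. For the difference between tissues, day as a block gave 1031 differences (348 positive, 683 negative) against 947. Without composition scaling 712 transcripts were higher and 3120 lower, and the 5 RPKM filter gave 901 higher, and 565 differences between tissues (403 negative). Leaving out 1 library gave 822 to 2351 calls (465 to 1226 higher, 357 to 1125 lower) and 24 to 46 of the listed transcripts higher. Leaving out 1 day gave 291 to 1223 differences (54 to 349 positive, 232 to 874 negative).
Directions that turned were all of transcripts not called. Without composition scaling the changes were -0.00843 for Sg-nag2, -0.0186 for Sg-LyzC-2, -0.16 for ferritin, -0.00474 for the cathepsin L homolog and -0.357 for Bax inhibitor 1. Leaving out 1 library gave -0.067 to 1.168 for Sg-LyzC-2, -0.471 to 3.054 for the peroxidase, -0.357 to 0.169 for catalase, -0.432 to 0.02298 for the V-ATPase subunit, -0.0757 to 0.284 for Bax inhibitor 1 and -0.269 to 0.375 for Dll. Of the other 864 values of named transcripts under alternatives, 797 kept direction and call, 51 lost the call and 16 gained it. With 1 library per stage, age and sampling cannot be told apart.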
